A study of Mus musculus with 8 samples.

Results

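The genes described here are the transporters that move bile acids and drugs through hepatocytes, chosen by name as 10 rows of a count table of 31910 genes. They comprise 5 uptake carriers of the basolateral membrane, Slc10a1, Slco1a1, Slco1a4, Slco1b2 and Slco2b1, and 5 export pumps, Abcb11, Abcb4, Abcc2, Abcc3 and Abcb1a. Their mRNA was measured in livers of mice given AAV2/9-SA (SA, 4 libraries) or AAV2/9-Ctrl (Ctrl, 4 libraries), both adeno-associated viral vectors. By its title the series is about NASH, an inflamed fatty liver, and a tetramerized protein of bacterial origin that relocates acetyl-CoA carboxylase. Its design lists feeding with HFD (24 weeks), HFHC plus fructose and sucrose to drink (16 weeks) or normal chow. The vectors went into the tail vein at 4.8e10 vg per mouse after 7 weeks of feeding, so every animal of both groups had received AAV2/9. The diet, strain and age behind each library, the promoter of the vector and what SA stands for are not given in the sources used here. No level of the SA insert was analysed here, so the label of a library could not be checked by its transgene.

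Hepatocytes take up bile acids from portal blood through sodium-dependent and organic anion carriers and secrete them into bile canaliculi through ATP-driven pumps. The flow of bile depends on this polarity, and in cholestasis uptake carriers commonly decline while basolateral export rises. Bile acids act on the nuclear receptor FXR, encoded by Nr1h4, and Abcb11, the bile salt export pump, is a textbook FXR target.

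The promoters of Abcb11 and Slco1b2 are shown because they hold the FXR-type element of the set. They are the 250 bases before the RefSeq start, on the strand of the gene, build GRCm38.p6. For Abcb11 the window is chr2:69342617-69342866 on the minus strand, and its capitals mark an inverted repeat with 1 spacer base. For Slco1b2 it is chr6:141629268-141629517 on the plus strand, and its capitals mark such a repeat and, nearer the start, a half-site of the hepatocyte factor HNF1.
Abcb11: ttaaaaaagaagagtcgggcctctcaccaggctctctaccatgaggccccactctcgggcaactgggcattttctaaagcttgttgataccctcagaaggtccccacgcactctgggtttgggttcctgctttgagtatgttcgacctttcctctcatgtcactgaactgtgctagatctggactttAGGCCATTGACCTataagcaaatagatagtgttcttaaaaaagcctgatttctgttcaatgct
Slco1b2: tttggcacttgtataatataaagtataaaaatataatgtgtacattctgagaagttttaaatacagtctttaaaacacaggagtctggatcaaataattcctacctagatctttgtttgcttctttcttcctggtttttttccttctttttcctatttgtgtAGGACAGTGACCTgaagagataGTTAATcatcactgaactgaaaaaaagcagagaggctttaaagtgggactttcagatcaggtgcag

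The inverted repeat was searched on both strands as AGGNCA, 1 base of any kind and TGACCT, with letters chosen while the Abcb11 promoter was in view. It lay 63 to 51 bases before the start of Abcb11 and 88 to 76 bases before that of Slco1b2. Of 32851 mouse promoter windows of the same length, 11 held it, or 0.0335%, and 2 of those 11 belonged to these transporters. Because of how the letters were chosen, the Abcb11 match was set in advance and the count is no measure of enrichment. The HNF1 half-site GTTAAT, present in 6.43% of windows, was found in 1 member, Slco1b2, without overlapping the repeat. The growth hormone-responsive STAT5 element TTCNNNGAA, present in 7.02% of windows, was found in 3 members, Slco1b2, Slco2b1 and Slc10a1. RefSeq gave 12 windows for 9 of the 10 genes, with several each for Slco2b1 and Slc10a1. A count of members is therefore not directly comparable with a share of windows. A match is a description of letters, not of a bound site.

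The 8 libraries held 14114145 to 28184001 counts, the highest in SA 4, and mitochondrial transcripts took 3.55% to 4.87% of counts in 7 libraries and 9.23% in Ctrl 4. All 12 hepatocyte markers passed the filter on low counts, and their summed level was 101570 to 124250 normalised counts scaled to library size (CPM) in SA and 106610 to 142460 CPM in Ctrl. Bile duct markers, 9 of 11 tested and 8 of those with a negative value, summed to 60.0 to 86.2 CPM in SA and 70.5 to 162 CPM in Ctrl. Stellate cell and fibroblast markers, 8 of 9 tested and 8 with a negative value, summed to 310.1 to 375.4 CPM in SA and 375.03 to 865.5 CPM in Ctrl. Kupffer cell and macrophage markers, 8 of 8 tested and 7 with a positive value, summed to 493 to 713 CPM in SA and 366 to 651 CPM in Ctrl. Endothelial markers (8 of 9 tested, 5 negative) summed to 245 to 368 CPM in SA and 315 to 348 CPM in Ctrl. Neutrophil markers (4 of 6 tested, 4 negative) summed to 7.32 to 10.7 CPM in SA and 8.26 to 18.5 CPM in Ctrl. Lymphocyte markers (7 of 10 tested, 6 positive) summed to 10.5 to 12.9 CPM in SA and 4.81 to 9.10 CPM in Ctrl. The lymphocyte sums did not overlap, although 6 of the 10 markers averaged under 1 CPM. Of these 10, DESeq2 called 2 higher, Cd8a and Gzma, against 0.346% of all its genes in either direction. They averaged 1.44 and 2.56 CPM in SA, against 0.204 and 0.469 CPM in Ctrl. With edgeR 0 were called, against 0.0162% of all genes tested. Of 9 intestinal, renal and pancreatic markers 5 had no read in any library, namely Fabp2, Umod, Slc12a1, Kap and Cpa1, and Vil1 and Prss2 stayed under 1 CPM. The other 2 were detected, Lgals4 at 8.89 to 14.4 CPM in SA and 7.24 to 13.3 CPM in Ctrl and Cela1 at 7.59 to 16.4 CPM in SA and 8.40 to 19.0 CPM in Ctrl. Lrat, Hsd3b5 and Hsd3b7, listed here as genes of liver cells, also had no read in any library. A lack of reads may therefore not mean a lack of RNA. In such bulk samples fewer cells of a type and less RNA per cell cannot be told apart, and the part of other cell types in the values below was not tested.

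All 10 transporters were expressed and passed the filter, and none passed a test of SA against Ctrl livers. With edgeR's quasi-likelihood test 0 of 10 had an adjusted p under 0.05, against 0.0162% of the 12358 genes tested. At an unadjusted p under 0.05 the count was also 0, against 6.21% of all genes, 2.91% higher and 3.29% lower. DESeq2 called 0 of 10 as well, against 0.346% of its genes, with 0 at an unadjusted p under 0.05 against 5.26%. In none of the 10 did the 4 SA libraries lie clear of the 4 Ctrl libraries, a separation seen in 3.12% of tested genes, 1.66% higher and 1.46% lower. The log2 fold changes, SA over Ctrl, were positive in 6 members and negative in 4 and ran between -0.51 and 0.27, with a median of 0.07 beside -0.01 over all tested genes. The adjusted p lay between 0.953 and 0.996 (edgeR). For 8 members the 95% interval stayed inside a 2-fold change in either direction. The intervals of Slco1a1 and Slco1a4 reached beyond it, so a 2-fold difference was not excluded by these 8 libraries for those carriers. All 10 intervals rest on the counts, which for Slco1b2 depart from the authors' FPKM and for Abcb1a are uncertain, as described below.

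**Figure D1:**
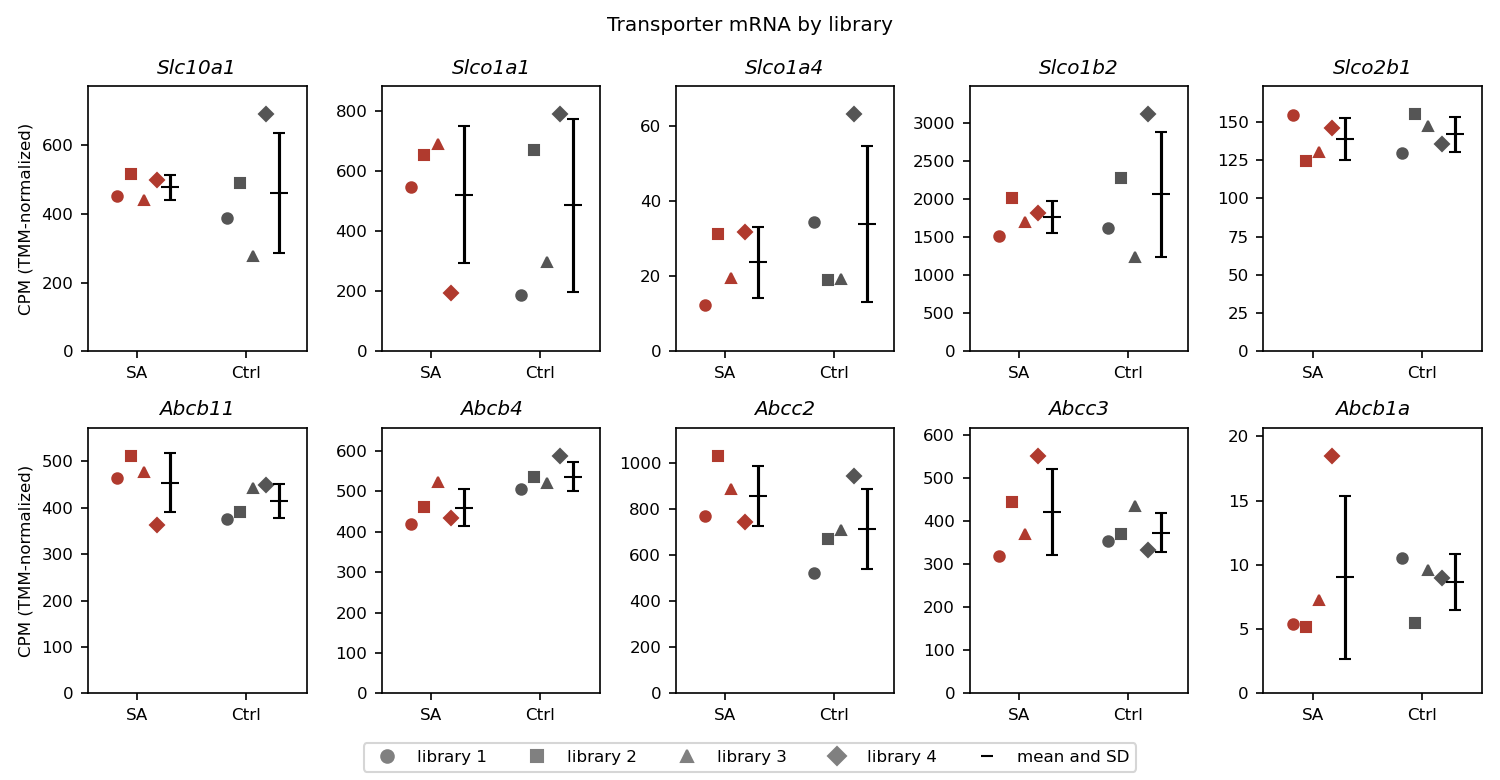
Levels of the 10 transporters in CPM, with SA libraries in red and Ctrl libraries in grey, 1 marker shape per replicate number, and bars for the mean and SD of 4 libraries. The groups overlap in every panel, and Slco1a1 spans 187 to 789 CPM.

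The sodium-dependent carrier Slc10a1, also called NTCP, is the main route of conjugated bile acids into hepatocytes. It had 453, 518, 442 and 499 CPM in SA 1 to 4, against 388, 489, 278 and 690 CPM in Ctrl 1 to 4. All 4 SA values lay inside the Ctrl range, which was set by Ctrl 3 at the low end and Ctrl 4 at the high end. The mean was 478 ± 36.0 CPM in SA and 461 ± 175 CPM in Ctrl (SD, n = 4 each), and the estimated log2 fold change was 0.05 with a 95% interval of -0.45 to 0.55 (edgeR, adjusted p = 0.996). The coefficient of variation was 7.53% in SA and 38.0% in Ctrl, a difference in spread that was not tested.

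Slco1b2 encodes the liver-specific organic anion carrier OATP1B2, which takes up unconjugated bile acids and many drugs. It was the most abundant of the set, with 1516, 2019, 1707 and 1825 CPM in SA 1 to 4, against 1623, 2279, 1243 and 3116 CPM in Ctrl 1 to 4. As with Slc10a1, Ctrl 3 was the lowest and Ctrl 4 the highest of all 8 libraries. Its log2 fold change was -0.23 with a 95% interval of -0.77 to 0.32 (edgeR, adjusted p = 0.996), and it was 0.03 without Ctrl 4. Ctrl 3 and Ctrl 4 also had the lowest and the highest mitochondrial share, 3.55% and 9.23%, whose part in these levels was not tested.

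Slco1a1, which encodes OATP1A1 and is more abundant in male than in female mouse liver, was the most uneven of the abundant carriers. It had 548, 655, 691 and 194 CPM in SA 1 to 4, against 187, 670, 299 and 789 CPM in Ctrl 1 to 4. The values fell apart into 3 low libraries, SA 4, Ctrl 1 and Ctrl 3, and 5 high ones, and both groups held libraries of each kind. The mean was 522 ± 227 CPM in SA and 486 ± 289 CPM in Ctrl (SD, n = 4 each). SA over Ctrl gave a log2 fold change of 0.10 with a 95% interval of -0.85 to 1.05 (edgeR, adjusted p = 0.996), and it was -0.18 without Ctrl 1 and 0.42 without Ctrl 4.

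Slco1a4, which encodes the digoxin carrier OATP1A4, was much less abundant. It had 12.3, 31.3, 19.5 and 31.6 CPM in SA 1 to 4, against 34.5, 19.1, 19.2 and 63.0 CPM in Ctrl 1 to 4. SA 1 was the lowest library and Ctrl 4 the highest, and the other 6 were mixed. Its log2 fold change of -0.51 was the most negative of the set, with a 95% interval of -1.34 to 0.31 (edgeR, adjusted p = 0.988), and without Ctrl 4 it was -0.03.

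Slco2b1, an organic anion carrier of broad tissue distribution, varied least among the uptake genes. It had 154, 125, 130.5 and 146 CPM in SA 1 to 4, against 130, 155, 147 and 135 CPM in Ctrl 1 to 4. The 2 ranges all but coincided. Its log2 fold change was -0.03 with a 95% interval of -0.31 to 0.26 (edgeR, adjusted p = 0.996).

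Among the pumps of the canalicular membrane, Abcb11 drives bile salts into bile. It had 463, 511, 477 and 364 CPM in SA 1 to 4, against 377, 391.6, 443 and 449.6 CPM in Ctrl 1 to 4. Thus 3 of 4 SA libraries lay above every Ctrl library, and SA 4 lay below all of them. SA over Ctrl gave a log2 fold change of 0.13 with a 95% interval of -0.20 to 0.45 (edgeR, adjusted p = 0.996), and it was 0.21 without SA 4. Nr1h4 and Nr0b2 are given because Abcb11 is a known FXR target. Nr1h4, which encodes FXR, averaged 196 ± 16.5 CPM in SA and 174 ± 20.5 CPM in Ctrl. Nr0b2, the FXR-induced repressor SHP, averaged 42.6 ± 9.57 CPM in SA and 51.3 ± 11.6 CPM in Ctrl (SD, n = 4 each). Their log2 fold changes of 0.17 and -0.27 did not pass (edgeR, adjusted p = 0.989 for both).

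Abcb4, the phosphatidylcholine translocator that protects bile ducts from bile salts, had the smallest p of the set. It had 418, 461, 523 and 434 CPM in SA 1 to 4, against 505, 534, 521 and 586 CPM in Ctrl 1 to 4. In SA, 3 of 4 libraries lay below every Ctrl library, while SA 3 lay among them. The mean was 459 ± 46.2 CPM in SA and 537 ± 35.2 CPM in Ctrl (SD, n = 4 each). Its log2 fold change was -0.22 with a 95% interval of -0.52 to 0.07 (edgeR, unadjusted p = 0.128, adjusted p = 0.953).

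Abcc2, or MRP2, exports conjugated bilirubin, glutathione and glucuronides into bile. It had 769, 1029.8, 887 and 744 CPM in SA 1 to 4, against 523, 673, 712 and 943 CPM in Ctrl 1 to 4. All SA libraries were above Ctrl 1, Ctrl 2 and Ctrl 3, but Ctrl 4 was above 3 of them. The mean was 858 ± 131 CPM in SA and 713 ± 174 CPM in Ctrl (SD, n = 4 each), and the log2 fold change of 0.27 was the most positive of the set, with a 95% interval of -0.15 to 0.68 (edgeR, adjusted p = 0.978). Without Ctrl 4 it was 0.42, with an adjusted p of 0.443 (edgeR).

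Abcb1a, an mdr1 P-glycoprotein gene for drug export, was the least abundant, with 80 to 510 reads per library. It had 5.37, 5.13, 7.26 and 18.4 CPM in SA 1 to 4, against 10.6, 5.52, 9.60 and 8.97 CPM in Ctrl 1 to 4. SA 4 stood above the other 7 libraries, and SA 1 and SA 2 stood below all Ctrl libraries. SA over Ctrl gave a log2 fold change of 0.08 with a 95% interval of -0.74 to 0.90 (edgeR, adjusted p = 0.996), but -0.56 without SA 4 (edgeR, adjusted p = 0.925). Its sequence overlaps that of its paralogue most in the set. Of the 50-base words in its annotated transcripts, 22.5% also occurred in transcripts of other genes, mainly Abcb1b, against 0% to 5.89% in the other 9 members. Its count is therefore uncertain.

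Abcc3, or MRP3, exports bile acid and drug conjugates back to blood. It had 319, 445, 369 and 550.0 CPM in SA 1 to 4, against 354, 371, 436 and 332 CPM in Ctrl 1 to 4. SA 4 was the highest and SA 1 the lowest library. Its log2 fold change was 0.17 with a 95% interval of -0.22 to 0.56 (edgeR, adjusted p = 0.996), and it was 0.01 without SA 4.

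**Figure D2:**
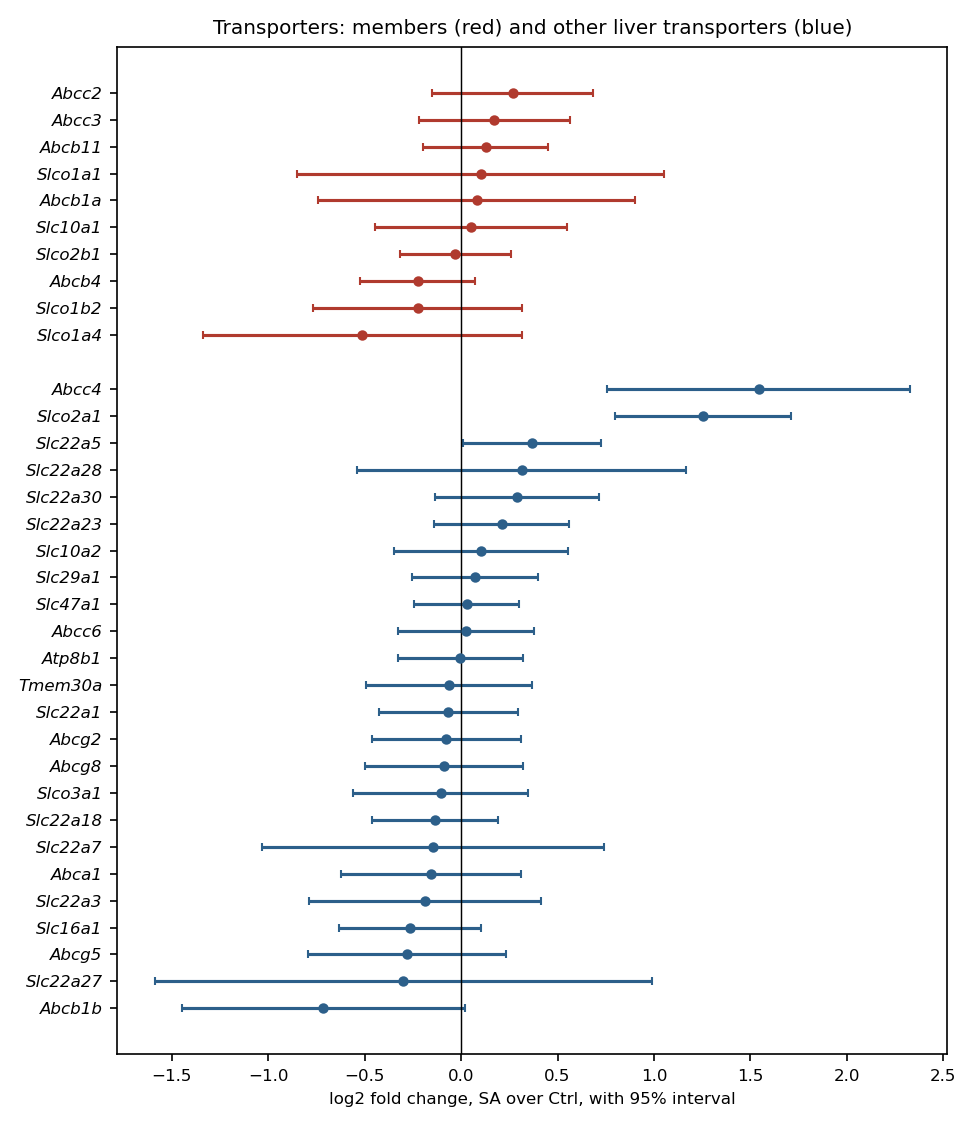
Log2 fold change, SA over Ctrl, with its 95% interval (edgeR) for the 10 transporters in red and 24 other tested liver transporters in blue. All 10 red intervals cross 0, while those of Abcc4, Slco2a1 and Slc22a5 in blue do not before adjustment over all genes.

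The spread of the members within groups differed widely. The pooled within-group SD of log2 level was 0.92 for Slco1a1, 0.73 for Slco1a4 and 0.64 for Abcb1a, against medians of 0.24, 0.24 and 0.29 over genes of like abundance, that is within 1 log2 unit of the member's mean. Of those like genes, 98.8%, 99.0% and 96.7% had a smaller SD than Slco1a1, Slco1a4 and Abcb1a. At the other end, Abcb4 had an SD of 0.12 and Slco2b1 of 0.13, and only 5.45% and 11.3% of genes of like abundance varied less. The 95% interval of the log2 fold change accordingly ran from -0.52 to 0.07 for Abcb4 and from -0.85 to 1.05 for Slco1a1.

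**Figure D3:**
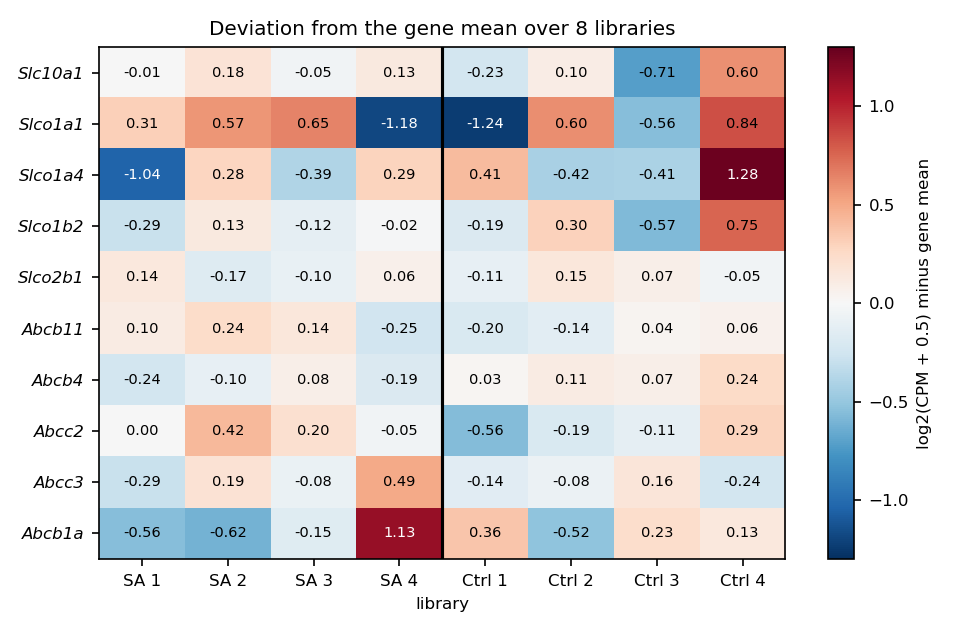
Each cell gives log2(CPM + 0.5) of a transporter in a library minus the mean of that gene over 8 libraries, with SA libraries left of the line. The deepest blue cells are Slco1a1 in Ctrl 1 (-1.24) and SA 4 (-1.18), and the deepest red ones are Slco1a4 in Ctrl 4 (1.28) and Abcb1a in SA 4 (1.13).

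Across the 8 libraries pairs of transporters correlated in both directions, from r = -0.77 for Slco1a1 and Abcb1a to 0.91 for Slc10a1 and Slco1b2. For Slco1a1 and Abcb1a, Spearman's rho was -0.52 (exact permutation p = 0.197, adjusted p = 0.681). Without Ctrl 1 and SA 4, the 2 libraries farthest from the median of Slco1a1, r of that pair was -0.38. With 8 libraries, a pair that does not pass the test below is not shown to vary independently. Of 45 pairs of members, 3 had an unadjusted p under 0.05 for Pearson's r in an exact two-sided permutation test over the libraries, and 0 passed after Benjamini-Hochberg adjustment over the 45. The closest pair was Slc10a1 and Slco1b2, with r = 0.91 (exact permutation p = 0.00449, adjusted p = 0.202) and Spearman's rho = 0.86 (exact permutation p = 0.0107, adjusted p = 0.419). Without Ctrl 3 and Ctrl 4, the 2 libraries farthest from the median of Slc10a1, r was 0.65. All members share the scaling of their library. By the same measure, over 11310 named genes of at least 1 CPM, the genes most like Abcb4 were Acvr1 (r = 0.97) and Ednrb (r = 0.96), those most like Abcc2 were Foxn3 (r = 0.98) and Carmil1 (r = 0.97), and those most like Slco1a4 were Degs1 (r = 0.99) and Zc3h15 (r = 0.96). These are descriptions over 8 libraries, given for the members with the 3 smallest p. Each r was picked as among the highest of 11310, so a high value was built in, and none was tested.

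Some, but not all, genes known to differ by sex in mouse liver had the 3 libraries low in Slco1a1 as their lowest or highest. The order among the 3 was not compared. The 3 libraries low in Slco1a1 were also the 3 lowest for 6 of 12 tested male-biased genes, Cyp4a12b, Mup21, Cyp7b1, Susd4, Nudt7 and Serpina1e, and not for the other 6. They were the 3 highest for 1 of 5 tested female-biased genes, Cyp2b9. How many of all tested genes have these 3 libraries lowest or highest was not counted, so neither count can be read as particular to sex-biased genes. Gstp1, by contrast, was highest in SA 4, and Cyp4a12a was highest in Ctrl 3. All 8 libraries carried 1179 to 2655 reads of the Y-linked gene Ddx3y and 0 reads of Xist, where the lack of reads has the limit given above. Cyp7b1 was picked with its values already known, and so was the pairing of these genes with Slco1a1. Cyp7b1, a male-biased oxysterol hydroxylase, had 251, 210, 296 and 149.7 CPM in SA 1 to 4, against 83.7, 323, 124 and 269.9 CPM in Ctrl 1 to 4. Cyp2b9, a female-biased cytochrome P450, had 1.48, 3.0, 1.18 and 40.1 CPM in SA 1 to 4, against 11.9, 0.28, 5.13 and 0.79 CPM in Ctrl 1 to 4. SA 4, Ctrl 1 and Ctrl 3, the 3 libraries low in Slco1a1, were thus the 3 lowest for Cyp7b1 and the 3 highest for Cyp2b9. Since the Slco1a1 values fell into separate clusters, no correlation of Slco1a1 with Cyp7b1 or Cyp2b9 is given, and their relation was not tested. The correlations of Slco1a1 with other members, given above, have the same limit. For Cyp2b9 the estimate was 1.36 on the log2 scale (edgeR, adjusted p = 0.989), and -1.26 without SA 4.

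Of 12 tested male-biased genes 0 passed, with 6 positive and 6 negative and a median of 0.06. The 4 with the smallest p were Gstp1 at 0.68, Susd4 at 0.73, Serpina1e at 1.29 and Mup20 at -0.26 (log2 fold changes; edgeR, adjusted p between 0.408 and 0.978). Susd4 and Mup20 had -0.26 and 1.004 on the log2(FPKM + 1) scale. Of 16 female-biased genes 5 passed the filter on low counts, 4 of them positive. Of these 5, edgeR called 1, against 0.0162% of all genes tested. This was Cyp2c40, a cytochrome P450, which rose to 7.15 ± 2.27 CPM in SA, against 0.823 ± 0.259 CPM in Ctrl (SD, n = 4 each), a log2 difference of 3.10 (edgeR, adjusted p = 0.00604). Without Ctrl 4 its adjusted p was 0.0602 (edgeR). Its neighbour in the family Cyp2c69 had 2.48 (edgeR, adjusted p = 0.342; DESeq2, adjusted p = 0.0150), and Cyp17a1, a steroid hydroxylase, had -0.31 (edgeR, adjusted p = 0.996). Cyp2a4 did not pass the filter, although it had 13.3 CPM in SA 2 and 97.3 CPM in SA 4. It had 0.268 and 0.277 CPM in SA 1 and SA 3 and at most 1.77 CPM in Ctrl. Its log2 fold change was 5.46 with DESeq2 (adjusted p = 0.142).

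**Figure D4:**
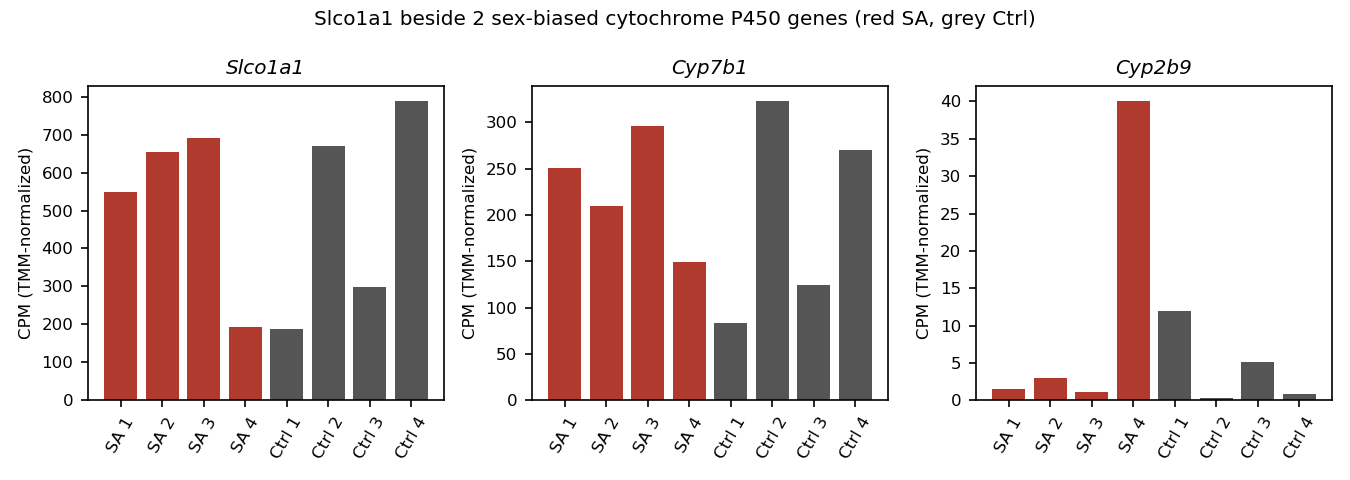
Levels of Slco1a1, Cyp7b1 and Cyp2b9 in CPM in each library, SA in red and Ctrl in grey. SA 4, Ctrl 1 and Ctrl 3 are the lowest bars for Slco1a1 and Cyp7b1 and the highest for Cyp2b9, which reaches 40.1 CPM in SA 4.

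Among other liver transporters 0 of 24 tested genes passed the threshold in edgeR, and 3 were higher at an unadjusted p under 0.05, against 2.91% of all genes higher at that level. Their median log2 fold change was -0.07, with 10 positive and 14 negative. Of the 29 listed, 5 had too few reads to be tested, among them Slc51a and Slc51b, the chains of the basolateral bile acid exporter OST, with at most 1 and 5 reads per library.

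The genes nearest the threshold were Slco2a1 and Abcc4. Slco2a1, a prostaglandin carrier, had 38.4, 70.8, 74.3 and 68.6 CPM in SA 1 to 4, against 21.5, 23.4, 30.9 and 29.9 CPM in Ctrl 1 to 4. The groups did not overlap. The estimate of 1.25 on the log2 scale had an SE of 0.21 and an adjusted p of 0.0972 with edgeR. DESeq2 called it (adjusted p = 0.000115), as did edgeR without SA 1 (adjusted p = 0.00621). The authors' FPKM gave -0.30 for it, on the log2(FPKM + 1) scale.

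Abcc4, or MRP4, exports bile acids across the basolateral membrane. It had 6.51, 25.3, 10.7 and 23.7 CPM in SA 1 to 4, against 5.66, 4.89, 6.09 and 6.17 CPM in Ctrl 1 to 4. The groups did not overlap, although SA 1 exceeded the highest Ctrl library by little. The log2 fold change of 1.54 ± 0.36 (SE) did not pass with edgeR (adjusted p = 0.342), but did with DESeq2 (adjusted p = 0.0106) and with edgeR without SA 1 (adjusted p = 0.0285). For Slc22a5, a carnitine carrier, the estimate was 0.37 on the log2 scale (edgeR, adjusted p = 0.797), and Abcb1b, the paralogue of Abcb1a, had -0.71 (edgeR, adjusted p = 0.828).

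Of 28 genes for regulators and membrane trafficking of transporters, all tested, 0 passed with edgeR, 18 were positive and 10 negative, with a median of 0.06. Nr1i3, which encodes the drug-sensing receptor CAR, had 15.0, 20.5, 19.0 and 19.2 CPM in SA 1 to 4, against 8.32, 12.9, 12.3 and 8.33 CPM in Ctrl 1 to 4. The groups did not overlap, and the log2 fold change of 0.82 ± 0.19 (SE) had an adjusted p of 0.342 with edgeR and 0.0494 with DESeq2. Hnf4a, a hepatocyte transcription factor, averaged 683 ± 118 CPM in SA and 448 ± 57.7 CPM in Ctrl (SD, n = 4 each), or 0.61 on the log2 scale (edgeR, adjusted p = 0.425). Its groups were just clear of each other, at 527.9 CPM in SA 1 and 527.5 CPM in Ctrl 3. Rxra, the partner of FXR and CAR, had 0.32 (edgeR, adjusted p = 0.833), and -0.21 on the log2(FPKM + 1) scale, while the antioxidant regulator Nfe2l2 had -0.32 (edgeR, adjusted p = 0.833). In bile acid synthesis and conjugation 0 of 13 tested genes passed (median 0.04). Acox2 had 0.36, Cyp8b1, the sterol 12-alpha-hydroxylase, -0.46, Akr1d1 0.30 and the conjugating enzyme Baat 0.18 on the log2 fold change scale, with adjusted p between 0.698 and 0.989 (edgeR).

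Per kilobase of exon, uptake carriers were both the highest and among the lowest of the set. CPM was divided by the summed exon length of the gene in GENCODE M21, a mouse annotation on GRCm38. The median over 8 libraries was 358 CPM per kilobase for Slco1b2 and 214 for Slc10a1. It was 114 for Slco1a1, 88.7 for Abcc2, 86.7 for Abcb11, 64.9 for Abcc3 and 54.7 for Abcb4. Slco2b1 followed at 23.6, Slco1a4 at 3.96 and Abcb1a at 1.48. From Slco1b2 down to Abcb4 each neighbour in this order overlapped the next in range. Slco2b1, at 20.9 to 26.0, lay clear of Abcb4 above, at 44.6 to 62.5, and of Slco1a4 below, at 1.91 to 9.83, while Slco1a4 and Abcb1a overlapped.

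The authors' deposited FPKM, listed for 8 members, gave another order. Abcb11 was highest there, with 168 ± 23.8 FPKM in SA and 153 ± 19.7 FPKM in Ctrl (SD, n = 4 each). Slco1b2 was lowest, with 1.13, 2.55, 2.59 and 26.6 FPKM in SA 1 to 4, against 0.624, 0.962, 23.1 and 2.24 FPKM in Ctrl 1 to 4. Its level per kilobase from the counts was 149.6 times its FPKM by the medians over 8 libraries, a ratio exceeded by 7 of 7831 genes in both tables, whose median ratio was 0.654. Slco1a1 was placed differently in 2 of its 3 low libraries: SA 4 and Ctrl 3 had its highest FPKM of all, 70.9 and 126. Ctrl 1 was the lowest in both tables, at 11.4 FPKM. The split of Slco1a1 into low and high libraries is therefore that of the counts and not of the FPKM. The 2 tables thus do not give one account of Slco1b2 and Slco1a1, and which is nearer the RNA was not tested.

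**Figure D5:**
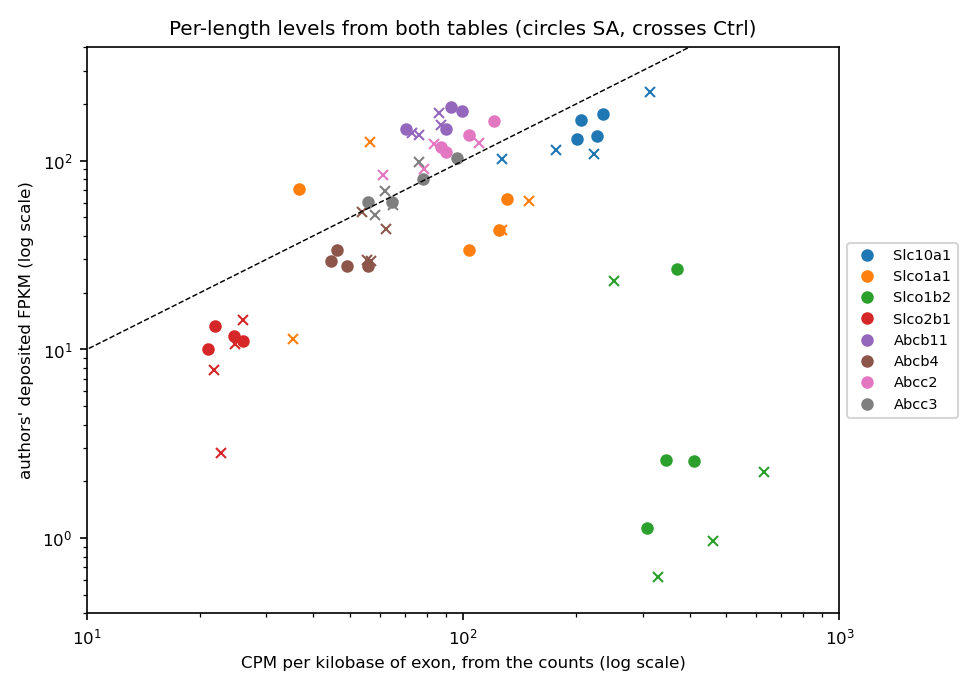
Authors' deposited FPKM against CPM per kilobase of exon from the counts for 8 transporters, both axes log-scaled, with circles for SA, crosses for Ctrl and a dashed line of equality. The green Slco1b2 points lie far below the line, at 0.624 to 26.6 FPKM against 252 to 632 CPM per kilobase.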

How the data were processed

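Liver mRNA of 8 mouse samples, 4 SA and 4 Ctrl by title, was sequenced from frozen tissue with a NEBNext Ultra kit, per the labels' protocols. The authors deposited whole-number read counts per gene, not normalized. They also deposited FPKM for 9265 genes. FastQC 0.19.7, HISAT2 and StringTie 2.2.1, and the builds GRCm39 and mm10, are named without a role, per the submitters' processing notes. Neither the counting program nor its strand setting is given in the sources used here. Reads of overlapping antisense genes may therefore not be told apart. Since no label ties samples to separate animals, each p-value reflects spread among the 8 samples, which may be technical. Every pair of libraries differed by more than sampling noise (lowest chi-square per degree of freedom 24.6).

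SA was tested against Ctrl in edgeR 4.0.16 (R 4.3.3; quasi-likelihood, TMM factors) after filterByExpr (12358 genes), with Benjamini-Hochberg adjustment over all of them, threshold 0.05. CPM are TMM-normalized. Intervals come from the fold change, its F statistic and the t quantile. The fit was tested on simulated data. The alternatives were DESeq2 1.42.0, limma 3.58.1 with voom or on log2(FPKM + 1) and log2(FPKM + 0.1), other scalings and filters, the replicate number as a block, and each library left out. The 10 members and the lists were chosen with earlier results of these data known. From each related list the text names the up to 4 genes with the smallest p, and other genes as stated there. Promoters are from RefSeq (GRCm38.p6).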

Additional observations from a re-analysis of the deposited data

Results flagged for a closer look

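The 30 genes searched were the 10 transporters and the 4 genes with the smallest p of each related list. In 5 of 60 groups of 4 libraries, a library lay far from the other 3. The cut-off gives about 1 in 20 groups for normally distributed values. CPM were not shown to be so, and part of the genes were picked by p, so the count cannot be read against that rate. Abcb1a was at 18.4 CPM in SA 4, with the next SA library at 7.26 CPM. Slco2a1 was at 38.4 CPM in SA 1, with the next SA library at 68.6 CPM. Slc22a5, a carnitine carrier, was at 55.5 CPM in Ctrl 1, with the next Ctrl library at 65.9 CPM. Abcb1b was at 6.51 CPM in SA 1, with the next SA library at 2.70 CPM. The female-biased Cyp2b9 was at 40.1 CPM in SA 4, with the next SA library at 3.0 CPM.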

How the results depend on the processing

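No member passed the threshold under any of the 20 alternatives (adjusted p at least 0.341, for Abcc2 in limma-voom with sample weights). Of 194 member values 169 kept their sign and 25 did not. Slco1a4 and Abcb1a are not in the FPKM table and have no FPKM value. With each library left out in turn, the log2 fold change ran from -0.13 to 0.30 for Slc10a1, -0.18 to 0.42 for Slco1a1, -0.71 to -0.03 for Slco1a4, -0.40 to 0.033 for Slco1b2, -0.082 to 0.020 for Slco2b1, 0.07 to 0.21 for Abcb11, -0.29 to -0.18 for Abcb4, 0.14 to 0.42 for Abcc2, 0.01 to 0.29 for Abcc3 and -0.56 to 0.27 for Abcb1a. On FPKM, Slco1b2 had 0.40 (0.62 with a pseudocount of 0.1), Slco2b1 0.50 (0.58), Slco2a1 -0.30 (-0.47), Rxra -0.21 (-0.21), Susd4 -0.26 (-0.41) and Mup20 1.004 (1.01), with the same values for a pseudocount of 1 without the filter. Cyp17a1 had 0.023 with a pseudocount of 1, and -0.52 to 0.15 with 1 library left out, the highest without Ctrl 1. Cyp2b9 ran from -1.26, without SA 4, to 2.47. In limma-voom Abcb1a had -0.0035, and with sample weights it had -0.17 and Slco1b2 0.0033. With both libraries numbered 4 left out, a choice made after seeing the data, Slco1a1 had 0.69, Slco1b2 0.012, Abcc3 -0.047, Abcb1a -0.54 and Cyp2b9 -1.61. With the replicate number as a block Abcb1a had -0.10. The cause was not tested.

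Over all genes 2 passed. The count was 60 with DESeq2, 8 without a filter, 5 with limma-voom and sample weights, 6 with the replicate block, 0 without both libraries numbered 4, and 0 to 19 with 1 library left out. The count of 19 arose without SA 1, and without Ctrl 4 it was 0. Among other transporters 2 passed with DESeq2 and 1 without a filter, and 0 to 2 with 1 library left out, 2 of them without SA 1. Among regulators 1 passed with DESeq2. Of the female-biased genes 1 passed, 2 with DESeq2, 0 on FPKM, where Cyp2c40 is not listed, 0 without both libraries numbered 4, and 0 to 1 with 1 library left out, 0 without Ctrl 4. The numbers gave no clear sign of pairing the samples, though 4 libraries per group cannot exclude it. Same-numbered libraries correlated at -0.01, -0.01, 0.26 and -0.25 in their deviations from the group means, and not every library correlated best with its own number. The block changed no call on a member. Abcb1a, at 80 to 510 reads, has the least precision by counting.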
